A study of Mus musculus with 10 samples.

Results

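siFbxw7 was compared directly with siRnf31 in mouse embryonic stem cells, on the 4 of the 10 arrays of the series whose titles carry those names, 2 per siRNA. All 18194 genes named by a single symbol entered the comparison. No gene passed an adjusted p under 0.05 in limma's moderated test with Benjamini-Hochberg adjustment, which is 0% of the genes tested, and the smallest adjusted p was 0.922; 945 genes had an unadjusted p under 0.05. The estimates furthest from 0 included many genes of extraembryonic endoderm, the lineage that makes the yolk sac and its basement membrane: 14 of 37 measured members were higher in siFbxw7 at an unadjusted p under 0.05, against 2.97% of all genes. Their adjusted p-values were also 0.922 or more, so these are differences between 4 arrays that did not pass the test. The list was chosen with earlier results of these data known, and its members were read on the same 4 arrays. The share of the list is therefore a description and was not tested.

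All groups were the NG4 mouse embryonic stem cell line, reverse transfected with an siRNA (the cells are added to the siRNA as they are plated) and kept under differentiation conditions with retinoic acid. Total RNA was taken 48 h after transfection. The compared groups received siRNA named for Fbxw7 or Rnf31, the control group received siNonTarget, and the remaining groups received siSox17 or siSocs3. The labels name a single cell line and do not say whether the 2 replicates of a group were separate cultures, so the p-values reflect array-to-array spread alone, and that spread may be technical. The series title names members of the ubiquitin-proteasome system, and the direct comparison asks whether depleting a substrate-selecting and a linear-chain-building ligase gave different transcript levels.

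Fbxw7 is the F-box protein of an SCF ubiquitin ligase. It binds substrates phosphorylated at a degron, among them cyclin E, MYC, Notch intracellular domains and KLF5, and so sends them to the proteasome. Rnf31, also called HOIP, is the catalytic subunit of LUBAC, which joins ubiquitin head to tail into linear chains at TNF-receptor complexes and supports NF-kB signalling. Both act on proteins, whereas the arrays measured RNA.

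The targeted transcripts came first. Fbxw7 had log2 intensities of 9.04 and 9.28 on the siFbxw7 arrays, 9.74 and 9.37 on the siRnf31 arrays and 9.27 and 9.55 on the siNonTarget arrays. Both siFbxw7 arrays lay below both siRnf31 arrays, while siFbxw7 and siNonTarget overlapped. The log2 difference, siFbxw7 minus siRnf31, was -0.39 (SE 0.15, 95% interval -0.74 to -0.04, n = 2 arrays a group), a level 1.31-fold higher in siRnf31. A second Fbxw7 probe set gave -0.46 (SE 0.29) with overlapping arrays, at 8.91 and 8.86 in siFbxw7 and 9.85 and 8.84 in siRnf31. On that probe set both siFbxw7 arrays lay below both siNonTarget arrays (9.47 and 9.29). Rnf31 had log2 intensities of 7.80 and 7.55 on the siFbxw7 arrays, 7.13 and 7.59 on the siRnf31 arrays and 7.91 and 7.62 on the siNonTarget arrays. Only siRnf31 replicate 1 stood apart, and the compared groups overlapped. The Rnf31 difference was 0.31 (SE 0.17, 95% interval -0.07 to 0.69). Each targeted transcript was thus lower on average in its own siRNA group, by an amount that did not pass the test, and protein levels were not analysed here. The Fbxw7 difference was -0.20 without siRnf31 replicate 1 and -0.57 without siRnf31 replicate 2. The other targeted genes of the series, Sox17 and Socs3, had overlapping groups for Sox17 (0.54, SE 0.53) and a lower estimate for Socs3 (-0.31, SE 0.24).

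Over all genes the median log2 difference was 0.01 and the median SE was 0.13. The unadjusted p was under 0.05 for 945 genes (5.19% of those tested), where chance alone gives 910. Of these, 540 were higher in siFbxw7 (2.97%) and 405 lower (2.23%). The arrays did not overlap for 3195 genes higher in siFbxw7 (17.6%) and 2551 lower (14.0%). Estimates of at least 2-fold were found for 37 genes higher and 22 lower. Higher estimates outnumbered lower ones mainly among dim genes: 71.1% of the genes at an unadjusted p under 0.05 were higher in siFbxw7 where the mean log2 intensity was under 6, and 47.2% where it was 6 or more. Without siFbxw7 replicate 2 the count at an unadjusted p under 0.05 was 1503, still with no gene past the adjusted threshold.

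**Figure D1:**
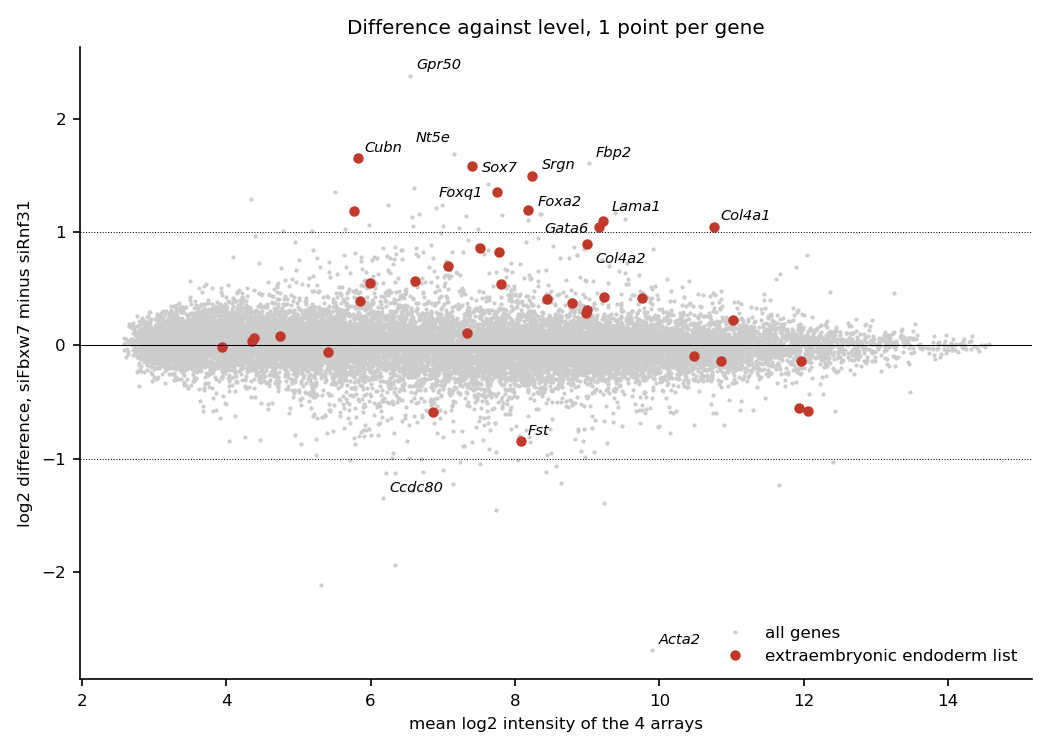
Log2 difference, siFbxw7 minus siRnf31 (vertical axis), against mean log2 intensity of the 4 arrays (horizontal axis), 1 point per gene, with dotted lines at a 2-fold difference and the extraembryonic endoderm list in red. Cubn, Sox7, Srgn and Foxq1 lie above the upper line, Gpr50 has the highest estimate (2.38) and Acta2 the lowest (-2.69).

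The arrays of a group were not always the most alike. Across genes, siFbxw7 replicate 1 correlated best with siNonTarget replicate 1 (r = 0.9974) and siFbxw7 replicate 2 with siSox17 replicate 2 (r = 0.9978), against 0.9935 between the siFbxw7 replicates. The siRnf31 replicates correlated at 0.9952 with each other and better with an array of another group. Between its own replicates, 208 genes differed by at least 2-fold in siFbxw7 and 105 in siRnf31. The actin 3' minus 5' control difference, a sign of RNA integrity, was 0.60 on siFbxw7 replicate 1 and 0.50 on siNonTarget replicate 1 and lay between 0.21 and 0.29 on the other 8 arrays. Core stem cell markers were present on all 4 arrays: Pou5f1 ran from 11.45 to 12.36 and Nanog from 11.28 to 12.06 in log2 intensity, with overlapping groups. Of 8 fibroblast markers, Col1a2 (8.58 to 9.62) and Pdgfrb (8.63 to 8.92) were well measured on the 4 arrays, and Lum, Postn and Thy1 stayed at 4.60 or below.

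Extraembryonic endoderm arises from the inner cell mass as primitive endoderm and then forms parietal and visceral layers. GATA6, GATA4, SOX17, SOX7 and forkhead factors specify it, parietal cells secrete laminin and type IV collagen, and visceral cells take up nutrients through cubilin and megalin. Embryonic stem cells make such cells in culture, and retinoic acid is known to favour them. Of 38 listed genes 37 were measured. At an unadjusted p under 0.05, 14 were higher in siFbxw7 (37.8%, against 2.97% of all genes) and 1, Fst, was lower (-0.85, SE 0.35). Arrays did not overlap for 16 higher (43.2%, against 17.6%) and 2 lower members, and 28 estimates were above 0. The list's median difference was 0.41, against 0.01 over all genes; it was 0.27 without siFbxw7 replicate 2, and 0.285 with the mean of each gene's probe sets. No member passed the adjusted threshold in limma. In these bulk samples, fewer cells of a type and less RNA per cell cannot be told apart.

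Among the transcription factors, Foxq1, a forkhead protein, had the smallest p of all genes. Its log2 intensity was 8.24 and 8.60 on the siFbxw7 arrays, 7.09 and 7.04 on the siRnf31 arrays and 7.67 and 7.37 on the siNonTarget arrays. siFbxw7 lay above and siRnf31 below both controls, and the groups did not overlap. The difference was 1.35 (SE 0.21, 2.55-fold, limma adjusted p = 0.922), and the second Foxq1 probe set gave 1.54 (SE 0.28). Foxa2, a pioneer factor of endoderm, read 8.76 and 8.78 on the siFbxw7 arrays, 7.30 and 7.84 on the siRnf31 arrays and 8.62 and 9.01 on the siNonTarget arrays. Here siFbxw7 lay within the control range and siRnf31 lay below it, as did the arrays of siSox17 (mean 8.04) and siSocs3 (mean 7.88). The Foxa2 difference was 1.20 (SE 0.20, 2.29-fold). Gata6, a GATA factor at the head of the primitive endoderm programme, read 9.37 and 10.001 in siFbxw7, 8.55 and 8.73 in siRnf31 and 8.81 and 8.95 in siNonTarget. Its arrays were ordered like those of Foxq1, with siFbxw7 highest and siRnf31 lowest, and the difference was 1.05 (SE 0.22). Sox7, a partner of SOX17 in endoderm, read 7.76 and 8.62 in siFbxw7, 6.23 and 6.98 in siRnf31 and 7.77 and 7.28 in siNonTarget. siRnf31 was below both controls, and siFbxw7 replicate 1 was level with the higher control. The Sox7 difference was 1.58 (SE 0.42). A second Sox7 probe set, dim at 3.87 to 4.29 on the 4 arrays, gave 0.08 (SE 0.25) with overlapping arrays. Hnf4a, a visceral endoderm and liver factor, differed by 0.40 (SE 0.13). Gata4 (0.55, SE 0.29) and Sox17 overlapped between the groups, and Foxa1 had an estimate of 0.29 (SE 0.19).

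**Figure D2:**
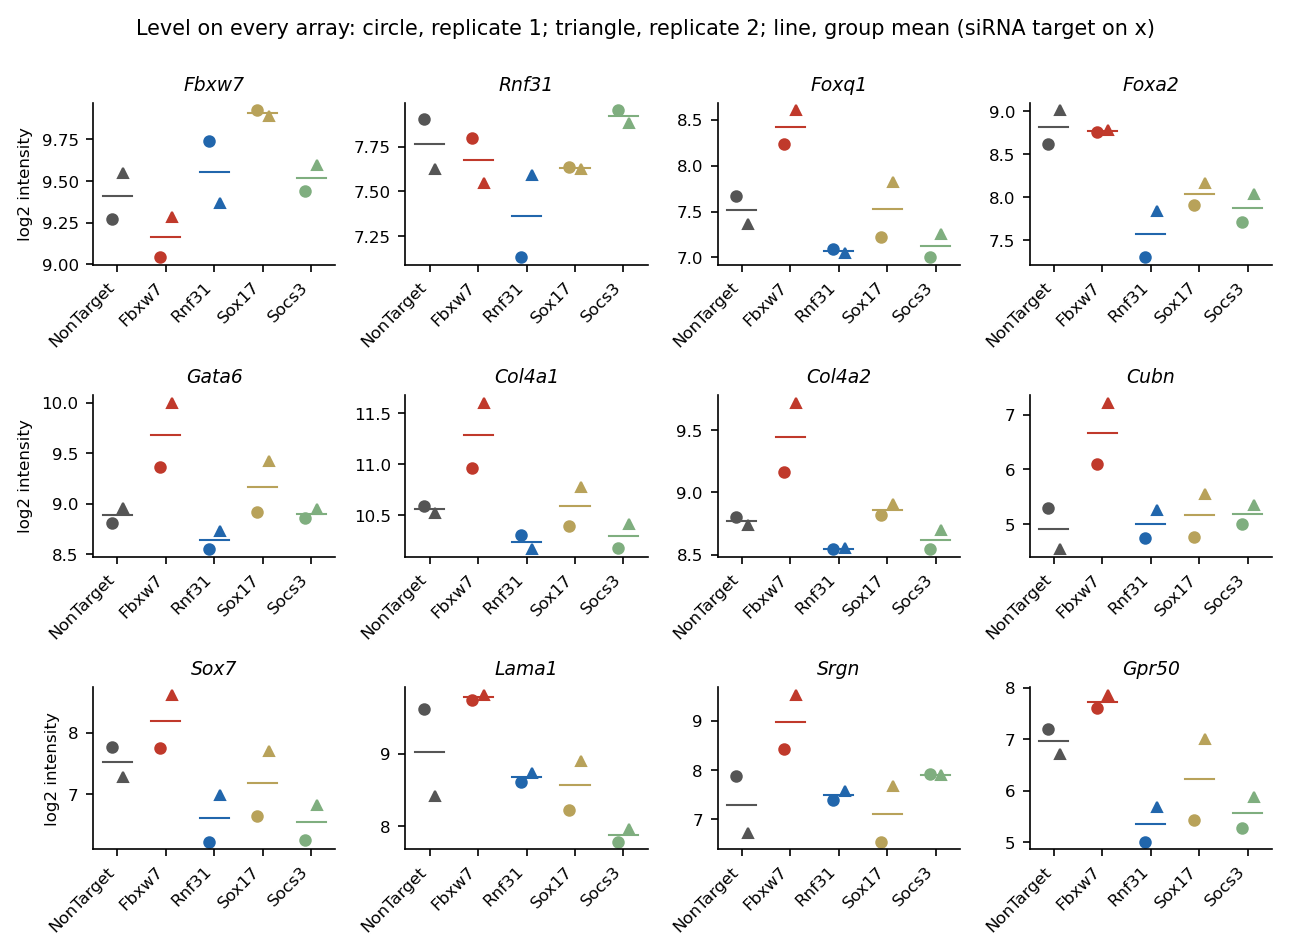
Log2 intensity (vertical axes) of 12 genes on all 10 arrays by siRNA target (horizontal axes), with circles for replicate 1, triangles for replicate 2 and lines for group means. For Foxq1, Gata6, Col4a1, Col4a2 and Cubn both siFbxw7 arrays are above every siNonTarget and siRnf31 array, whereas for Foxa2 the siFbxw7 arrays (8.76 and 8.78) lie between the siNonTarget arrays.

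Basement membrane genes were the other large part of the list. Col4a1 and Col4a2 encode the chains of the type IV collagen heterotrimer. Col4a1 read 10.96 and 11.61 in siFbxw7, 10.31 and 10.17 in siRnf31 and 10.59 and 10.53 in siNonTarget. Col4a2 read 9.17 and 9.72 in siFbxw7, 8.54 and 8.56 in siRnf31 and 8.80 and 8.74 in siNonTarget. For both chains every siFbxw7 array was above, and every siRnf31 array below, the control arrays. The differences were 1.05 (SE 0.21) for Col4a1, with 1.14 on its second probe set, and 0.89 (SE 0.16) for Col4a2. Lama1, the alpha chain of laminin-111, read 9.74 and 9.81 in siFbxw7, 8.61 and 8.74 in siRnf31 and 9.61 and 8.42 in siNonTarget. The compared groups were well separated (1.09, SE 0.34), but the control arrays spanned nearly the same range. Lamc1, the gamma chain, differed by 0.43 (SE 0.16), and Lamb1, the beta chain, by 0.22 (SE 0.18). In the list of collagen, laminin and basement membrane genes, which shares 4 of those 14 endoderm genes, 6 of 27 measured members were higher at an unadjusted p under 0.05 (22.2%, against 2.97%) and none lower, with a median of 0.18. Its other members at that level were P4ha1, a collagen prolyl hydroxylase (0.36, SE 0.12), and Lama4 (0.39, SE 0.17). Arrays did not overlap for 13 higher members (48.1%, against 17.6%) and 1 lower.

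The other listed genes, among them genes of uptake and secretion in the visceral layer, were mixed. Cubn, the cubilin receptor, read 6.10 and 7.22 in siFbxw7, 4.74 and 5.26 in siRnf31 and 5.30 and 4.54 in siNonTarget. Both siFbxw7 arrays stood above the others, and siRnf31 overlapped the control. The Cubn difference was 1.65 (SE 0.41, 3.15-fold). Srgn, the proteoglycan serglycin, differed by 1.50 (SE 0.47), Apob by 1.19 (SE 0.47), the retinol transporter gene Stra6 by 0.86 (SE 0.31) and the receptor gene Pdgfra by 0.83 (SE 0.30). Single arrays moved some of these: without siFbxw7 replicate 2, Pdgfra was 0.36 and Srgn 0.95, and without siFbxw7 replicate 1, Stra6 was 0.46. Amn, which encodes the anchor of cubilin, had overlapping groups (0.57, SE 0.28), as did the megalin gene Lrp2 (0.31, SE 0.30). Late visceral products had estimates close to 0. Afp was near the bottom of the range at 3.93 to 3.97 on the 4 arrays (-0.01, SE 0.14), and Apoa1 gave -0.06 (SE 0.13). Krt8 and Krt18, the simple-epithelium keratins, had negative estimates (-0.58, SE 0.59, and -0.55, SE 0.57). In Krt8 this rested on siFbxw7 replicate 1, at 11.15 against 12.38 on replicate 2 and 12.23 and 12.45 in siRnf31.

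The 14 endoderm genes did not take a single position relative to the control. They were picked for siFbxw7 above siRnf31, which by itself favours a high siFbxw7 and a low siRnf31 position. Shares over all genes for these positions were not computed, so the counts below only describe the 14. Both siFbxw7 arrays were above both siNonTarget arrays for 10 of them, and both siRnf31 arrays were below both for 8. The siFbxw7 mean was the highest of the 5 groups for 13. siRnf31 had the lowest mean for 8. Within siFbxw7, replicate 2 was above replicate 1 for 11, and replicate 2 was the array with the lower actin 3' minus 5' value; the part of RNA integrity in these differences was not tested. The summed level of 9 endoderm markers was 12.23 and 12.78 in siFbxw7, 11.46 and 11.53 in siRnf31 and 11.92 and 11.82 in siNonTarget, in log2. Without siFbxw7 replicate 1 the count of higher members at an unadjusted p under 0.05 was 16, without siFbxw7 replicate 2 it was 12, without siRnf31 replicate 1 it was 10 and without siRnf31 replicate 2 it was 15. Gata6, Sox7, Foxa2, Foxq1, Lama1, Col4a1, Col4a2 and Cubn stayed at an unadjusted p under 0.05 in every alternative that tested them. Where an alternative left 1 array in a group, that array was assumed to vary like those of the other groups, which supplied the spread. The list's median difference from siNonTarget was 0.23 for siFbxw7 and -0.10 for siRnf31, values that share the control arrays.

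The 250 bases upstream of the start sites of these genes were read from the RefSeq promoter table (build GRCm38.p6, most upstream start of each gene). Members without a window there, and members on a chromosome set aside by rule, were left out, which left 9 of the 14. Foxq1, Sox7, Gata6 and Lama1 were not among the 9. The windows of Foxa2 and Cubn, a factor gene and an uptake gene with large differences, are shown with those of Hnf4a and Apob, which hold the core GATA motif, written 5' to 3' on the gene's strand with motif matches in capitals. Foxa2 is at chr2:148046970-148047219 on the minus strand, Cubn at chr2:13491877-13492126 on the minus strand, Hnf4a at chr2:163506607-163506856 on the plus strand and Apob at chr12:7977427-7977676 on the plus strand.
Foxa2: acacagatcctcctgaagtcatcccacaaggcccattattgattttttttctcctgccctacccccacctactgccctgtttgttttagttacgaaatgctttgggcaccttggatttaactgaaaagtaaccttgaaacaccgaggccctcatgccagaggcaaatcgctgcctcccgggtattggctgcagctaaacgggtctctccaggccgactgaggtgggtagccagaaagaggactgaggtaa
Cubn: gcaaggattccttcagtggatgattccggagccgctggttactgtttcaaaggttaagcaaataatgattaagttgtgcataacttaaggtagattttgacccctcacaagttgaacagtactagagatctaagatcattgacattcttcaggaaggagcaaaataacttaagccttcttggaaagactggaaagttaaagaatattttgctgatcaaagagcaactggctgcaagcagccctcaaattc
Hnf4a: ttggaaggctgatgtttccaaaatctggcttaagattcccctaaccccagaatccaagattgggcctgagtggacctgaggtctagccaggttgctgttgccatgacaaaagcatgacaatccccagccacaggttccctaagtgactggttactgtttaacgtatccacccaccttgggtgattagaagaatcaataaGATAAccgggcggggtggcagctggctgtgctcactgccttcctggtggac
Apob: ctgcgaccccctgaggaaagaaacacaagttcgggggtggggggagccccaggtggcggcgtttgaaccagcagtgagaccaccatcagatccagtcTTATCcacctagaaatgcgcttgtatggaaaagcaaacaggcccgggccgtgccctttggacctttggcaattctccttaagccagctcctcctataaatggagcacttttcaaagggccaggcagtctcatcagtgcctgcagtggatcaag
The letters GATAA, searched on both strands, were found in 2 of the 9 windows, 51 bases before the Hnf4a start and 153 bases before the Apob start. Of 27025 promoter windows of the same length, from which no chromosome was set aside, 23.0% held them. The forkhead letters TGTTTAC, on both strands, were found in none of the 9 and in 3.06% of all windows. A match describes these letters only. Col4a1 and Col4a2 lie head to head on chromosome 8, with starts 21 bases apart. Col4a2 starts at 11312805 on the plus strand and Col4a1 at 11312826 on the minus strand. Their first 22 bases therefore overlap on opposite strands. The estimates were 1.05 for Col4a1 and 0.89 for Col4a2.

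Outside the endoderm list, Gpr50, an orphan receptor related to the melatonin receptors, had the highest estimate of all genes. It read 7.60 and 7.87 in siFbxw7, 5.02 and 5.69 in siRnf31 and 7.21 and 6.72 in siNonTarget. The siRnf31 arrays stood well below all others of these groups. Low values were also read in siSocs3 (5.27 and 5.88) and on replicate 1 of siSox17 (5.44, against 7.01 on replicate 2). The Gpr50 difference was 2.38 (SE 0.45, 5.20-fold), with 0.64 (SE 0.13) on its second probe set. Klb, the beta-klotho co-receptor of FGF hormones, read 7.34 and 7.89 in siFbxw7, 6.24 and 6.50 in siRnf31 and 6.68 and 6.69 in siNonTarget. Its groups were separated with the control between them (1.24, SE 0.21). A second Klb probe set, dim at 3.43 to 3.70 on the 4 arrays, gave 0.10 (SE 0.12). Cracdl differed by 1.39 (SE 0.25), the alarmin gene Il33 by 1.43 (SE 0.30) and Apobec2, of the cytidine deaminase family, by 1.39 (SE 0.30). For each of these 3 the siFbxw7 mean was above and the siRnf31 mean below the siNonTarget mean. A second Apobec2 probe set gave 0.14 (SE 0.19). Nt5e, the ecto-nucleotidase CD73, differed by 1.69 (SE 0.60) and Fbp2, a fructose-bisphosphatase, by 1.61 (SE 0.54). In both, the siFbxw7 mean lay about 1.90 above the siNonTarget mean in log2 and the siRnf31 mean within 0.30 of it. The siNonTarget replicates lay far apart, at 6.93 and 5.25 for Nt5e and 8.70 and 7.17 for Fbp2. The siFbxw7 arrays read 7.49 and 8.49 for Nt5e and 9.21 and 10.47 for Fbp2. The siSox17 means, 8.22 for Nt5e and 9.67 for Fbp2, were also above the control. The other Nt5e probe sets gave 0.52 (SE 0.17) and 0.17 (SE 0.12), the last with overlapping arrays. Without siFbxw7 replicate 2 the Fbp2 difference was 0.98. Ubash3b, a phosphatase that binds ubiquitin, differed by 0.77 (SE 0.15), and all 3 of its probe sets had higher siFbxw7 arrays. The aspartic peptidase gene Napsa differed by 0.74 (SE 0.14) and the bHLH factor gene Tcf24 by 0.61 (SE 0.12). The Tcf24 mean was 5.73 in siRnf31 and 5.77 in siSocs3, against 6.47 in siNonTarget.

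**Figure D3:**
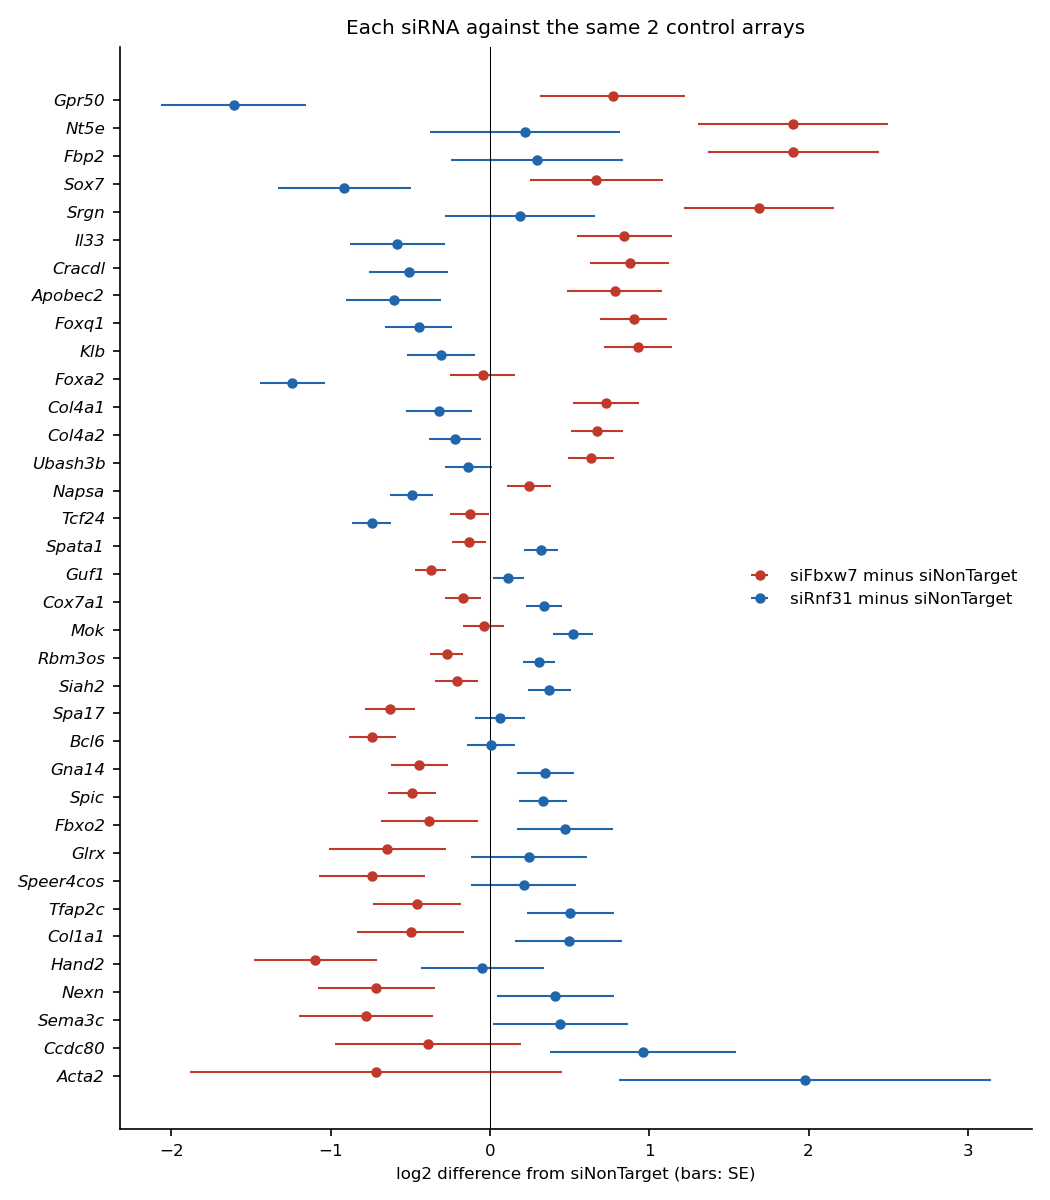
Log2 difference from the siNonTarget arrays (horizontal axis; bars are SE) for the genes of smallest p and largest difference between siFbxw7 and siRnf31, with siFbxw7 in red and siRnf31 in blue. Both differences use the same 2 control arrays, and no gene passed the adjusted threshold against the control in limma. The estimate further from 0 is that of siFbxw7 for Nt5e and Fbp2 and that of siRnf31 for Foxa2 and Tcf24. Gpr50 lies on opposite sides (0.77 and -1.61).

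The lower estimates were led by p by dim genes. Rbm3os read 3.52 and 3.54 in siFbxw7 and 4.10 and 4.12 in siRnf31, near the bottom of the range, with a difference of -0.58 (SE 0.10). Spic, an ETS-family factor, read 4.70 and 4.98 in siFbxw7, 5.73 and 5.59 in siRnf31 and 5.23 and 5.42 in siNonTarget. The control lay between the groups (-0.82, SE 0.15). Bcl6, a transcriptional repressor, gave -0.74 (SE 0.15). Its second probe set, dim at 4.15 to 4.27 on the 4 arrays, gave 0.06 (SE 0.11). Gna14, a G-protein alpha subunit, gave -0.79 (SE 0.18), and its siFbxw7 arrays were lower on all 3 probe sets. Siah2, a RING ubiquitin ligase, read 7.21 and 7.44 in siFbxw7, 7.88 and 7.92 in siRnf31 and 7.36 and 7.71 in siNonTarget. Its siRnf31 arrays were the highest of the 3 groups (-0.58, SE 0.14; -0.47 on a second probe set). Guf1, Cox7a1, Mok, Spa17 and Spata1 completed the 10 lower genes of smallest p, with differences from -0.69 to -0.45.

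The lower genes of largest difference were taken from those at an unadjusted p under 0.05 with a mean log2 intensity of at least 6 and arrays that did not overlap. Acta2, smooth muscle actin, read 8.02 and 9.10 in siFbxw7, 10.87 and 11.63 in siRnf31, and 7.16 and 11.39 in siNonTarget. The compared groups did not overlap, but the control replicates spanned a wider range than the difference between the group means. The Acta2 difference was -2.69 (SE 1.17, 95% interval -5.33 to -0.05). Its other probe sets, dim at 3.37 to 3.92 on the 4 arrays, gave -0.14 and -0.40. Col1a1, a fibrillar collagen chain, read 6.02 and 5.57 in siFbxw7 and 6.42 and 7.16 in siRnf31 (-0.99, SE 0.33). Col3a1 read 5.26 and 5.48 in siFbxw7, 6.26 and 8.35 in siRnf31 and 5.17 and 8.10 in siNonTarget (-1.94, SE 0.90). In Col1a1 and Col3a1 the higher siRnf31 value was on replicate 2. Second probe sets gave -0.19 (SE 0.14) for Col1a1 and -0.95 (SE 0.52) for Col3a1. Col3a1 did not reach an unadjusted p under 0.05, nor did some other genes of low estimate, such as Fosl2 (-1.10, SE 0.60) and Krt7 (-1.03, SE 0.57). Ccdc80 (-1.35, SE 0.58), Sema3c (-1.22, SE 0.42), Nexn (-1.13, SE 0.37) and Hand2, a cardiac and limb mesoderm factor (-1.05, SE 0.39), followed Acta2 among the genes chosen. Other probe sets gave smaller values: -0.15 for Ccdc80, -0.24 for Sema3c, and -0.15 and -0.02 for Hand2. Those of Sema3c and Hand2 had overlapping arrays, and those of Hand2 were dim, at 3.64 to 4.45 on the 4 arrays. Hand2 was -0.59 without siRnf31 replicate 2 and -1.51 without siRnf31 replicate 1. Tfap2c, an AP-2 factor of trophectoderm and germ cells, read 7.75 and 8.18 in siFbxw7, 9.19 and 8.67 in siRnf31 and 7.99 and 8.86 in siNonTarget. The siRnf31 arrays were higher on all 3 Tfap2c probe sets (-0.96, -0.86 and -0.88). Speer4cos, Glrx and Fbxo2, the last an F-box protein for glycoproteins, gave -0.95 (SE 0.33), -0.89 (SE 0.37) and -0.85 (SE 0.30). Of 23 fibroblast genes measured, 2 were lower (Col1a1 and Acta2; 8.70%, against 2.23%) and 1 higher (Pdgfra) at an unadjusted p under 0.05, with a median of -0.10. The summed level of 8 fibroblast markers was 10.38 and 10.09 in siFbxw7, 10.15 and 10.87 in siRnf31 and 10.41 and 10.79 in siNonTarget. Of these 8 markers, Col1a1, Col3a1, Dcn and Postn had lower siFbxw7 arrays without overlap, as 14.0% of all genes did. Only Col1a1 among them had an unadjusted p under 0.05 in limma. Col1a2, Pdgfrb, Thy1 and Lum overlapped. Col1a2 read 9.52 and 8.73 in siFbxw7 and 8.58 and 9.62 in siRnf31 (0.03, SE 0.33), and Pdgfrb gave -0.11 (SE 0.14). Lum, Postn and Thy1 were near the bottom of the range. The part of fibroblast RNA in these differences was not tested.

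**Figure D4:**
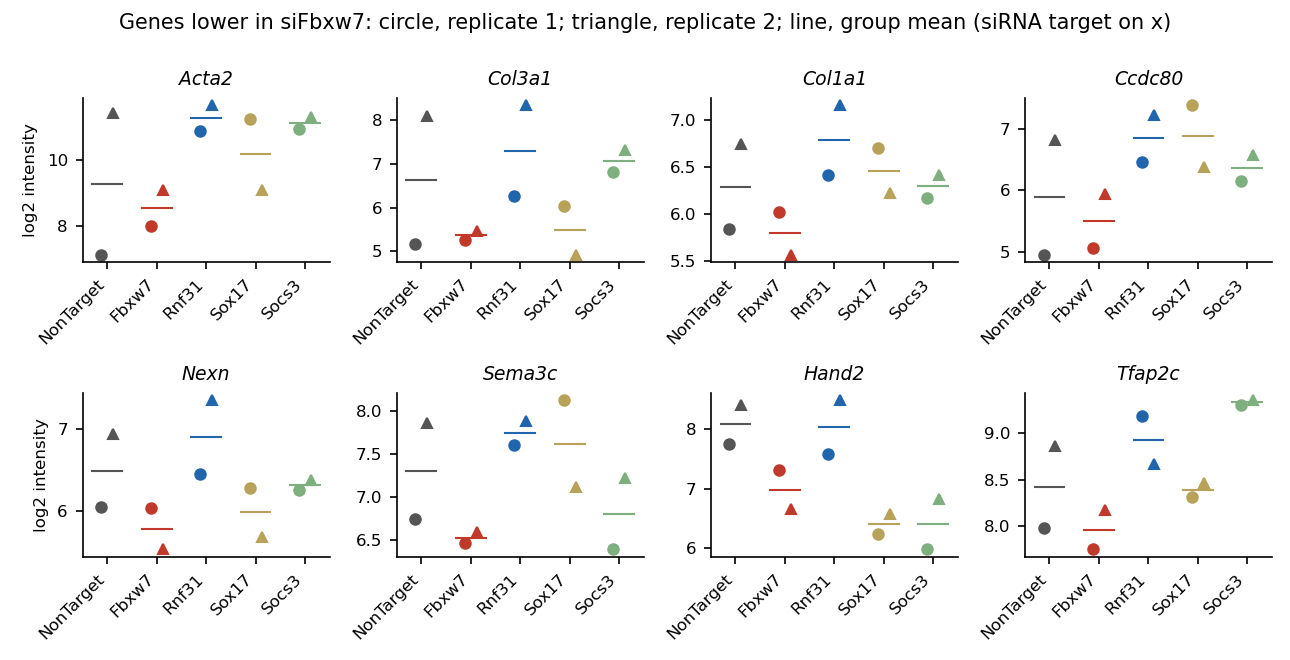
Log2 intensity (vertical axes) of 8 genes with lower estimates in siFbxw7 on all 10 arrays by siRNA target (horizontal axes), with circles for replicate 1, triangles for replicate 2 and lines for group means. The siNonTarget replicates lie far apart for Acta2 (7.16 and 11.39) and Col3a1 (5.17 and 8.10).

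Transcripts of the pathways that Fbxw7 serves were counted at an unadjusted p under 0.05 against the shares over all genes, 2.97% higher and 2.23% lower. Of 18 partners of Fbxw7 in the SCF complex and its upstream kinases, none was at that level in either direction, with a median of -0.06; Skp1, the adaptor, gave -0.13 (SE 0.10). Of 29 genes whose proteins are known Fbxw7 substrates, 1 was lower, the homeobox repressor gene Tgif1 (-0.35, SE 0.12; 3.45% of the list), and none higher. Klf5 (0.52, SE 0.25) and the cyclin E2 gene Ccne2 (0.27, SE 0.13) had the largest positive estimates there, with arrays that did not overlap. Of 34 MYC targets none reached that level, with a median of 0.03. Of 24 Notch genes, 2 were higher and 2 lower (8.33% each way, against 2.97% and 2.23%). They were the ligand gene Dll1 (0.50, SE 0.17), the modifier gene Lfng (0.31, SE 0.13), the feedback inhibitor gene Nrarp (-0.35, SE 0.13) and the ligand gene Jag1 (-0.45, SE 0.19). Of 24 sterol synthesis genes none reached that level. Insig1, which retains SREBP in the endoplasmic reticulum, gave 0.36 (SE 0.17).

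On the Rnf31 side, 27 genes of the linear ubiquitin complex and TNF-receptor signalling were measured. Birc3, the cIAP2 ubiquitin ligase, read 7.07 and 7.16 in siFbxw7, 6.79 and 6.89 in siRnf31 and 6.85 and 6.88 in siNonTarget. It was the only member at an unadjusted p under 0.05 (0.28, SE 0.10; 3.70% of the list higher, against 2.97%), and the siRnf31 arrays overlapped the control. Sharpin and Rbck1, the other LUBAC subunits, had overlapping arrays (-0.11, SE 0.12, and 0.23, SE 0.16). The LUBAC deubiquitinase gene Otulin also overlapped (-0.11, SE 0.14). Of 29 NF-kB targets Birc3 was again the only one (3.45% higher), and the median was 0.02. Ier3, an early NF-kB target, gave -0.67 (SE 0.32) with lower siFbxw7 arrays.

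**Figure D5:**
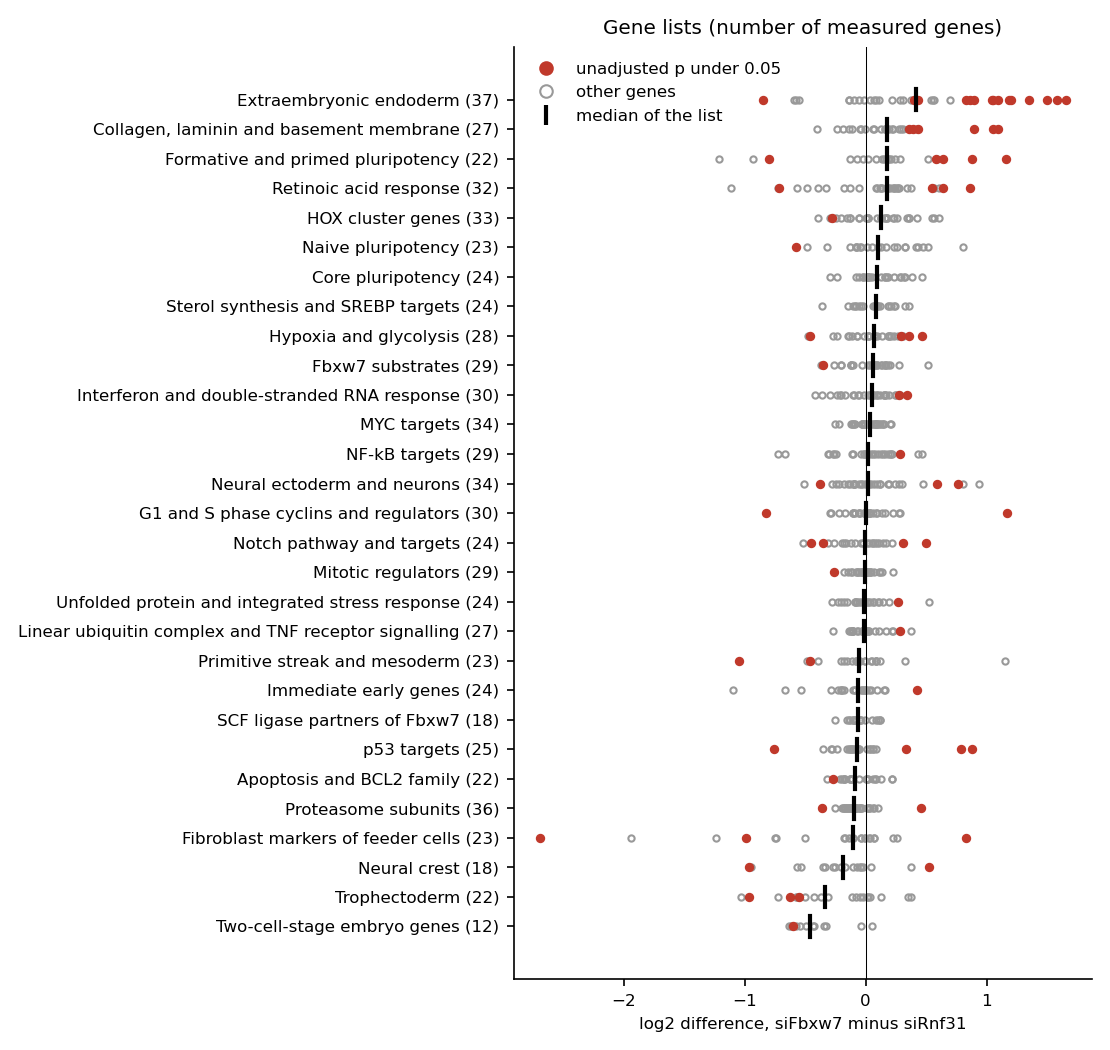
Log2 difference, siFbxw7 minus siRnf31 (horizontal axis), of the measured genes of 29 lists (rows, with the number measured), with genes at an unadjusted p under 0.05 filled in red and the list's median as a black bar. The extraembryonic endoderm list has the highest median (0.41) and the two-cell-stage list the lowest (-0.46).

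Pluripotency genes were measured in 3 lists. Of 24 core genes none reached an unadjusted p under 0.05 (median 0.09). Of 23 naive genes the nuclear receptor gene Nr5a2 did (-0.57, SE 0.23; 4.35% of the list lower, against 2.23%), but it was -0.19 without siRnf31 replicate 1 and -0.96 without siRnf31 replicate 2. Of 22 formative and primed genes, 4 were higher (18.2%, against 2.97%) and 1 lower (4.55%, against 2.23%). The higher ones were Dusp6 (0.58, SE 0.21), Spry4 (1.16, SE 0.46) and Etv4 (0.64, SE 0.28), which respond to FGF-ERK signalling, and the POU factor gene Pou3f1 (0.88, SE 0.38). Dusp6 read 12.01 and 11.80 in siFbxw7, 11.31 and 11.33 in siRnf31 and 12.08 and 11.49 in siNonTarget. Its siRnf31 arrays were the lowest and its siFbxw7 arrays lay within the control range. Lef1, a Wnt effector, was lower (-0.80, SE 0.32).

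Of 32 retinoic acid response genes, 3 were higher at an unadjusted p under 0.05 (9.38%, against 2.97%) and 1 lower (3.12%, against 2.23%), with a median of 0.17. The higher ones handle retinoids: Stra6 takes up retinol, Dhrs3 (0.64, SE 0.24) reduces retinaldehyde and Cyp26b1 (0.55, SE 0.24) degrades retinoic acid, though the Cyp26b1 arrays overlapped and its value was 0.21 without siRnf31 replicate 1 and 0.22 without siFbxw7 replicate 1. Rdh10, which oxidises retinol, was the lower one (-0.71, SE 0.29). Against siNonTarget the median of this list was negative in both groups, -0.316 for siFbxw7 and -0.545 for siRnf31. These values share the control arrays. The list's mean level overlapped between the groups, at 9.446 and 8.855 in siFbxw7 and 8.86 and 9.313 in siRnf31. Of 33 HOX genes only Hoxa7 reached that level (-0.28, SE 0.09; 3.03% lower, against 2.23%). Of 34 neural genes, the factor gene Ebf1 (0.77, SE 0.22) and the lipid-binding protein gene Fabp7 (0.59, SE 0.22) were higher (5.88%, against 2.97%) and Isl1 lower (-0.38, SE 0.17; 2.94%, against 2.23%). Of 18 neural crest genes, Msx1 was higher (0.52, SE 0.18) and Tfap2c lower (5.56% each way, against 2.97% and 2.23%). In the mesoderm list 2 of 23 were lower (8.70%, against 2.23%), Hand2 and Wnt3a (-0.46, SE 0.17). In the trophectoderm list 3 of 22 were lower (13.6%, against 2.23%) and none higher, with a median of -0.34. They were Tfap2c, Bmp4 (-0.62, SE 0.26) and Rhox6 (-0.55, SE 0.23). Cdx2 and Krt7, defining trophectoderm genes, had lower estimates (-0.72 and -1.03) that did not reach that level. Elf5 was near the bottom of the range on all 4 arrays.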

How the data were processed

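The authors deposited intensities from RMA, as the submitters' processing notes name it. Whether they were scaled afterwards, and the RMA version, is not stated there. The label protocol started from 5 ng of RNA, amplified and biotin-labelled, per the labels. The deposited intensity values run on a linear scale with array medians of 46.39 to 47.95, and log2 was taken first. RMA makes array distributions alike, so a shift common to most genes cannot appear, and the number of arrays limits the precision.

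Of 45101 probe sets, 34958 had 1 gene symbol in the platform annotation, 932 had several and were left out, and 9211 had none here. Gene IDs of 34754 matched the RefSeq table. The probe set of highest mean stood for a gene, which left 18194 genes. limma 3.58.1 (R 4.3.3) fitted the 10 arrays as 5 groups with no block, and siFbxw7 minus siRnf31 was tested two-sided with Benjamini-Hochberg adjustment over all genes; the script was tested on simulated data. An exact permutation test of 2 against 2 arrays cannot go below p = 0.333, so none was run. Lists were described by counts and medians. The siRNA pair, the lists and the tests were chosen with earlier results of these data known. Genes were named by rule: the targeted genes, the 10 of smallest p in each direction with arrays that did not overlap, the 10 of largest difference in each direction that also had an unadjusted p under 0.05 and a mean log2 intensity of at least 6, and up to 4 of smallest p per list; clone names were skipped, and other genes were named after their values were seen. Alternatives were normalization, filters, probe-set choice, the prior, an offset of 16, a replicate block and leaving out each array.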

Additional observations from a re-analysis of the deposited data

How the results depend on the processing

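No gene passed the adjusted threshold in limma under any alternative run, leave-one-out included (0 to 0 genes), and the smallest adjusted p ran from 0.168 without siFbxw7 replicate 1 to 0.978 without a siSocs3 array. The count at an unadjusted p under 0.05, 945, was 436 without the dimmest 50% of genes and 1585 with every probe set tested alone, where fewer and more features were tested. Leaving out each array gave 671 to 1503, the first without siRnf31 replicate 2 and the last without siFbxw7 replicate 2; the cause was not tested. Without the dimmest 50% of genes 40.6% of those genes were higher in siFbxw7, against 57.1%; without siFbxw7 replicate 2 it was 46.5%. Leaving out each array gave 10 to 16 higher endoderm genes. The same replicate numbers in both groups correlated at -0.26 in their deviations, and the labels do not say that a number marks a shared culture. For siNonTarget and siFbxw7 the value was 0.42, the highest of the group pairs, and for siNonTarget and siRnf31 it was 0.09. Whether a shared effect of the replicate number enters the differences from siNonTarget was not tested. With the replicate number as a block 0 genes were called, 1024 were at an unadjusted p under 0.05 and 14 endoderm genes were higher; with the crossed pairing, chosen after seeing the data, the counts were 0, 989 and 15. Of 2563 values of 138 named genes under alternatives, 2561 kept their sign. Leaving out each array gave -0.25 (without siFbxw7 replicate 2) to 1.33 for Sox17 and -0.025 (without siRnf31 replicate 2) to 1.07 for Cth. Leaving out 1 of the 4 compared arrays moved the value by over 1.5 times for 72 of the 138 genes, and for 28 of the 81 at an unadjusted p under 0.05; a group left with 1 array takes its spread from the others. The endoderm median ran from 0.27 to 0.46 in the same fits. Probe sets near the bottom of the intensity range limit what dim genes show.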

Other observations

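Of 12 measured genes of the two-cell-stage embryo, a programme of early blastomeres that rare stem cells re-enter, 11 had estimates below 0, with a median of -0.46 and a range from -0.63 to 0.05. Arrays did not overlap for 4, all lower in siFbxw7 (33.3%, against 14.0% of all genes). The list's mean level was 6.881 and 7.008 in siFbxw7 and 7.067 and 7.654 in siRnf31. The siNonTarget replicates lay far apart, at 6.876 and 7.533. Usp17la, a deubiquitinase gene of a multicopy family whose copies may share probes, read 9.94 and 9.82 in siFbxw7 and 10.12 and 10.85 in siRnf31 (-0.60, SE 0.26) and was the only member at an unadjusted p under 0.05 (8.33%, against 2.23%). The Usp17la difference was -0.24 without siRnf31 replicate 2 and -0.96 without siRnf31 replicate 1. Of 36 proteasome subunits, 15 had lower arrays in siFbxw7 without overlap (41.7%, against 14.0%) and 2 higher, though the differences were small, with a median of -0.09. Psme1, a subunit of the 11S activator, was lower at an unadjusted p under 0.05 (-0.36, SE 0.14) and Psmd3, a lid subunit of the regulatory particle, higher (0.46, SE 0.19). Each was 2.78% of the list, against 2.23% lower and 2.97% higher over all genes.

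In cell cycle genes, Cdkn1c, the inhibitor p57, read 9.77 and 10.16 in siFbxw7, 8.74 and 8.85 in siRnf31 and 9.99 and 9.02 in siNonTarget (1.17, SE 0.34). Cdkn2b, the inhibitor p15, read 7.45 and 7.91 in siFbxw7, 8.49 and 8.51 in siRnf31 and 7.43 and 8.53 in siNonTarget (-0.83, SE 0.33). For both, the compared groups were separated and the control replicates lay far apart. Of 29 mitotic genes only Cdc25c reached an unadjusted p under 0.05 (-0.26, SE 0.09; 3.45% lower, against 2.23%). Of 25 p53 targets, Plk3 (0.88, SE 0.36), Dram1 (0.79, SE 0.28) and Rrm2b (0.33, SE 0.13) were higher (12.0%, against 2.97% of all genes) and the death receptor gene Fas lower (-0.76, SE 0.27; 4.0%, against 2.23%), with a median of -0.07. Of 28 hypoxia and glycolysis genes, P4ha1, the hexokinase gene Hk2 (0.29, SE 0.10) and the glucose transporter gene Slc2a1 (0.47, SE 0.17) were higher (10.7%, against 2.97%) and Ankrd37 lower (-0.46, SE 0.20; 3.57%, against 2.23%). Of 30 interferon genes, Ifit1 (0.34, SE 0.11) and Ifih1 (0.27, SE 0.11) were higher (6.67%, against 2.97%), with Ifit1 at 3.20 to 3.60 on the 4 arrays, near the bottom of the range. Egr1 was the only gene at that level among 24 immediate early genes (0.42, SE 0.14), 4.17% higher against 2.97%. Pdia4 was the only such gene among 24 unfolded protein response genes (0.27, SE 0.11), also 4.17% higher against 2.97%. Bcl2l2 was the only such gene among 22 apoptosis genes (-0.27, SE 0.11), 4.55% lower against 2.23%. None of these values passed the adjusted threshold in limma.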
